A study of Mus musculus with 10 samples.

Results

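The 8 genes described are Cldn2, Cldn3, Cldn4, Cldn7, Cldn15, Cldn23, Tjp1 (ZO-1) and Ocln (occludin). They were chosen by symbol, and all 8 were found among the 30295 deposited gene rows and passed the filter on low counts. Of the claudins, Cldn2 and Cldn15 were taken as crypt claudins, and Cldn3, Cldn4, Cldn7 and Cldn23 as villus claudins.

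Claudins and their partners form the tight junction, the seal between neighbouring epithelial cells. Claudins are tetraspan membrane proteins whose outer loops either form charge-selective pores for ions and water or close the gap between cells. Occludin is another tetraspan protein of the same strands, and ZO proteins tie the strands to actin. In the small intestine the mix of claudins differs along the crypt-villus axis, with the pore formers Cldn2 and Cldn15 known from crypts and several sealing claudins known from the differentiated epithelium.

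RNA came from intestinal cells sorted by FACS from C57Bl/6 mice that carried 1 of 2 reporters. Hopx cells, which the study calls reserve stem cells, came from Hopx-CreER::LSL-tdTomato mice, in which cells with Hopx-driven Cre and their descendants are labelled, after calorie restriction (Hopx CR, n = 2) or with food ad libitum (Hopx AL, n = 2). Lgr5 cells, which it calls active stem cells, came from Lgr5-EGFP-IRES-CreER mice, whose label follows the Lgr5 locus itself, after calorie restriction (Lgr5 CR, n = 3) or with food ad libitum (Lgr5 AL, n = 3). Each of the 10 libraries came from 1 animal, and each of 5 isolations held 1 CR and 1 AL animal of the same reporter line. The sources used here do not give age, sex or how long the restriction lasted.

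Libraries held 20.3 M to 87.2 M estimated counts (M, 1e6). Neither reporter gene passed the adjusted threshold between the sorted populations, and Hopx was not higher in Hopx cells. Hopx averaged 99.1 ± 24.4 CPM in Hopx CR and 150.1 ± 4.39 CPM in Lgr5 CR, and 108 ± 4.03 CPM in Hopx AL and 127 ± 9.19 CPM in Lgr5 AL (SD, n = 2 for Hopx and 3 for Lgr5). Lgr5 averaged 114 ± 63.0 CPM in Hopx CR and 219 ± 62.3 CPM in Lgr5 CR, and 78.6 ± 12.2 CPM in Hopx AL and 155 ± 91.2 CPM in Lgr5 AL. CPM here are counts scaled to library size with TMM (trimmed mean of M-values), and are not divided by transcript length. Summed over 9 Paneth cell genes, the libraries held 160630 to 298997 TPM in Hopx cells and 66008 to 173701 TPM in Lgr5 cells (TPM, transcript abundances scaled to a fixed total, are per length). The 7 endothelial genes summed to 4.71 to 11.3 TPM and the 8 stromal genes to 0.351 to 1.08 TPM. In every library at least 1 endothelial and 1 stromal gene was at 0. The 10 immune genes, none of them at 0 in any library, summed to more. They held 1440 to 2356 TPM in Hopx cells and 2911 to 5370 TPM in Lgr5 cells.

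The claudin genes lie apart in the mouse genome except for one pair. In the GENCODE M21 annotation of GRCm38, Cldn4 is at chr5:134945119-134946934 on the minus strand and Cldn3 at chr5:134986214-134987472 on the plus strand, with starts 39.3 kb apart and transcription running in opposite directions. Cldn15 is on the same chromosome at chr5:136966616-136975858 (plus), Cldn2 at chrX:139800828-139811386 (plus), Cldn7 at chr11:69964779-69967885 (plus), Cldn23 at chr8:35824712-35826559 (minus), Tjp1 at chr7:65296165-65527781 (minus) and Ocln at chr13:100496507-100552718 (minus). Exons of Cldn3 overlap those of Wbscr25 in this annotation. The library kits do not mark strand, so reads within the shared stretch cannot be assigned to either gene by strand.

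Promoter windows are shown for both crypt claudins and, of the villus claudins, for the neighbouring pair Cldn3 and Cldn4 only. Each runs from 250 bases before to 50 bases after a RefSeq transcription start on GRCm38.p6, written 5′ to 3′ on the gene's strand. A window was given for 7 of the 8 members, and Cldn23 had none. Capitals mark CAGGTG, the E-box bound by Snail family repressors, TGANTCA, the AP-1 site, TTTATG, a site of the intestinal CDX factors, and TATAAA, the TATA box, searched on both strands.
Cldn2, chrX:139800558-139800857, plus strand: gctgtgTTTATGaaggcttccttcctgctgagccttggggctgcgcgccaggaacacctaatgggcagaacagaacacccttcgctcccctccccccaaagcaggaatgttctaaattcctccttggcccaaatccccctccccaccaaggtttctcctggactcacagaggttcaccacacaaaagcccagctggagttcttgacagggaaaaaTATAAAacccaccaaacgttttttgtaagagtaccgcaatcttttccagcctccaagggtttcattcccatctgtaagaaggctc
Cldn15, chr5:136967619-136967918, plus strand: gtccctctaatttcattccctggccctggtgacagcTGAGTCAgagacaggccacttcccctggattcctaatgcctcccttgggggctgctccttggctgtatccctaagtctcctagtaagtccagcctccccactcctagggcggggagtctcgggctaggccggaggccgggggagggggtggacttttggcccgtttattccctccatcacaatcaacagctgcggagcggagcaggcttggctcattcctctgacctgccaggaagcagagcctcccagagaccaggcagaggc
Cldn3, chr5:134985964-134986263, plus strand: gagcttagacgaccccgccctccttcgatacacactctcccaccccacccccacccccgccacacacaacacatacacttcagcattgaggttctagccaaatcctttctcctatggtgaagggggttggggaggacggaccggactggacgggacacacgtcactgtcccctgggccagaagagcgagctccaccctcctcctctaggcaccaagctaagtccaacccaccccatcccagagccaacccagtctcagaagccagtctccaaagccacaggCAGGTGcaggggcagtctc
Cldn4, chr5:134946885-134947184, minus strand: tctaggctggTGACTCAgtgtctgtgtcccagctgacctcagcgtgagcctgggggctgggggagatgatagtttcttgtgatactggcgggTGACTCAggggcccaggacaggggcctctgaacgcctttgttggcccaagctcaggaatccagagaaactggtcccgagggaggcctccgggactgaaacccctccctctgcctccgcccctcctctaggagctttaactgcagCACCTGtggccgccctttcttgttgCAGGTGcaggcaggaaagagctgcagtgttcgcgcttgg

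Of these 4 windows, only that of Cldn2 held TTTATG, which 11.85% of all 32851 promoter windows hold, and a TATAAA 35 bases before the start, which 13.616% hold. Cldn4 held 2 AP-1 sites and 2 E-boxes, the E-boxes beginning 14 bases before and 11 bases after the start. Cldn15 held 1 AP-1 site, and TGANTCA is in 7.808% of all windows. CAGGTG is in 20.212% of all windows and was also found in those of Cldn3, Cldn7 and Ocln. Each match is a string of letters in a window, and no binding was measured here.

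Over all 10 libraries Cldn7, a villus-group claudin of the lateral membrane, averaged 1323 TPM (856 to 1739). Cldn3, a sealing claudin, averaged 515 TPM (269 to 681), and Cldn15, a cation pore former, 266 TPM (176 to 343). Cldn2, the pore former for sodium and water, averaged 104.5 TPM (58.5 to 178), and Ocln 102 TPM (53.2 to 175). Cldn23, known from the differentiated luminal epithelium, averaged 20.9 TPM (12.1 to 33.9), Cldn4, a sealing claudin, 17.7 TPM (7.81 to 31.0), and Tjp1, a scaffold under the membrane, 6.27 TPM (2.29 to 11.8). Neighbours in this order stood in the same order in 10 of 10 libraries, except that Cldn2 was above Ocln in 5 of 10, so these genes did not differ beyond their spread. Cldn23 was above Cldn4 by a ratio of only 1.03 to 1.66. Cldn7 alone made up 52.6% to 59.4% of the summed TPM of the 8 genes in a library.

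**Figure D1:**
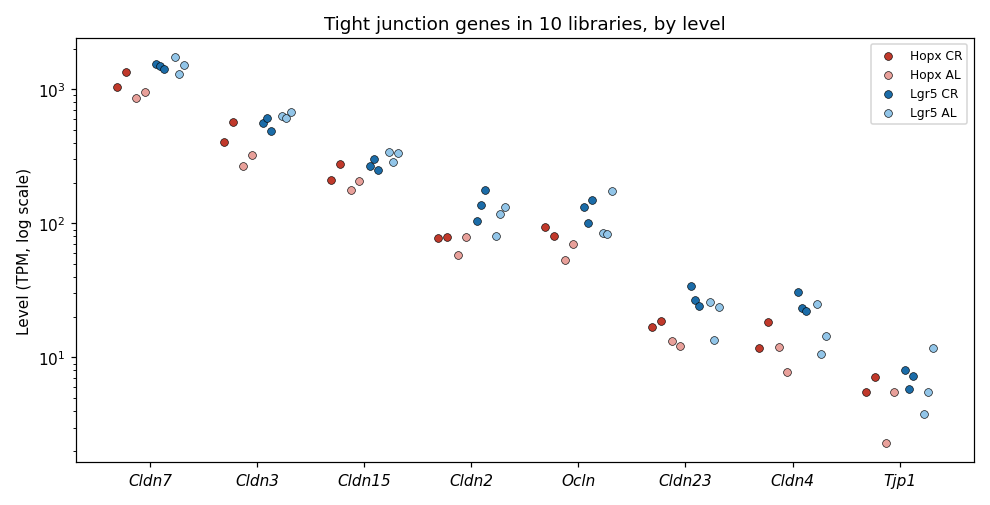
TPM level (log scale) of each of the 8 genes in the 10 libraries, 1 point per library, coloured by group. Cldn7 lies highest at 856 to 1739 TPM and Tjp1 lowest at 2.29 to 11.8 TPM, and Cldn2 and Ocln overlap.

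Diet was compared first within each isolation, where the CR and the AL animal were handled together. Over the 5 isolations all 8 genes had a fitted log2 fold change above 0, from 0.0039 for Cldn15 to 0.67 for Cldn4, where 51% of all 15839 genes tested did. Their median was 0.32, against 0.01 for all genes. None of the 8 passed an adjusted p of 0.05 in edgeR's quasi-likelihood test with Benjamini-Hochberg adjustment, a threshold that 0.297% of all genes passed. At an unadjusted p under 0.05 there were 3 of the 8 (Ocln, Cldn23 and Cldn4), where 16.2% of all genes lay. DESeq2 called none of the 8 either, with its lowest adjusted p among them at 0.0854 for Ocln. In sorted bulk RNA, more cells of a type and more RNA per cell cannot be told apart.

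Ocln, the occludin gene, was the only member whose CR library was above its AL library in all 5 isolations, as 8.71% of all genes were. Its CPM were 293.6 and 243.2 in Hopx CR and 230.2 and 225.1 in Hopx AL. In Lgr5 cells they were 326.9, 259.4 and 359.4 under CR and 211.0, 200.7 and 289.8 under AL. The Hopx groups did not overlap, while Lgr5 CR replicate 2 lay below Lgr5 AL replicate 3. Within isolations 1 to 5 the CR minus AL difference in log2 CPM was 0.63, 0.37, 0.31, 0.35 and 0.11. The fitted log2 fold change over the isolations was 0.35 (SE 0.115, 95% confidence interval 0.09 to 0.62, adjusted p = 0.201).

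Cldn4 had the largest fitted value of the members, and the widest. It measured 21.8 and 33.0 CPM in Hopx CR and 30.9 and 15.0 CPM in Hopx AL. In Lgr5 cells it measured 45.9, 36.2 and 31.7 CPM under CR and 37.2, 15.2 and 14.3 CPM under AL. Lgr5 AL replicate 1 stood within the CR range, and the 2 Hopx isolations went in opposite directions. Within isolations 1 to 5 the differences were 0.30, 1.25, 1.15, -0.50 and 1.13 log2 units. The fitted value was 0.67 (SE 0.272, interval 0.05 to 1.30, adjusted p = 0.282).

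Cldn23 followed a like order of libraries. It measured 32.1 and 34.6 CPM in Hopx CR and 35.0 and 23.8 CPM in Hopx AL. In Lgr5 cells it measured 51.3, 42.1 and 35.4 CPM under CR and 39.2, 19.8 and 24.1 CPM under AL. Again Lgr5 AL replicate 1 was high among the AL libraries, and the groups overlapped in both lines. Within isolations 1 to 5 the differences were 0.39, 1.09, 0.56, -0.13 and 0.54, with a fitted 0.49 (SE 0.176, interval 0.08 to 0.89, adjusted p = 0.240).

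Tjp1 measured 38.9 and 48.5 CPM in Hopx CR and 22.3 and 40.3 CPM in Hopx AL. In Lgr5 cells it measured 44.9, 34.0 and 38.9 CPM under CR and 21.2, 29.9 and 44.0 CPM under AL. Its groups overlapped in both lines, and 4 of 5 isolations had CR above AL, with a range of -0.18 to 1.08 log2 units. The fitted value was 0.43 (SE 0.192, adjusted p = 0.321).

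Cldn3, Cldn7 and Cldn15, the 3 most abundant members, had the smallest fitted diet values. Over the isolations these were 0.16 for Cldn3 (interval -0.18 to 0.50), 0.15 for Cldn7 (-0.21 to 0.50) and 0.0039 for Cldn15 (-0.31 to 0.32). The ratio of the highest to the lowest library in CPM was 1.62 for Cldn3, 1.71 for Cldn7 and 1.53 for Cldn15, against 3.22 for Cldn4. The CR library was above the AL library in 3 of 5 isolations for Cldn15 and Cldn7, and in 4 of 5 for Cldn3.

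**Figure D2:**
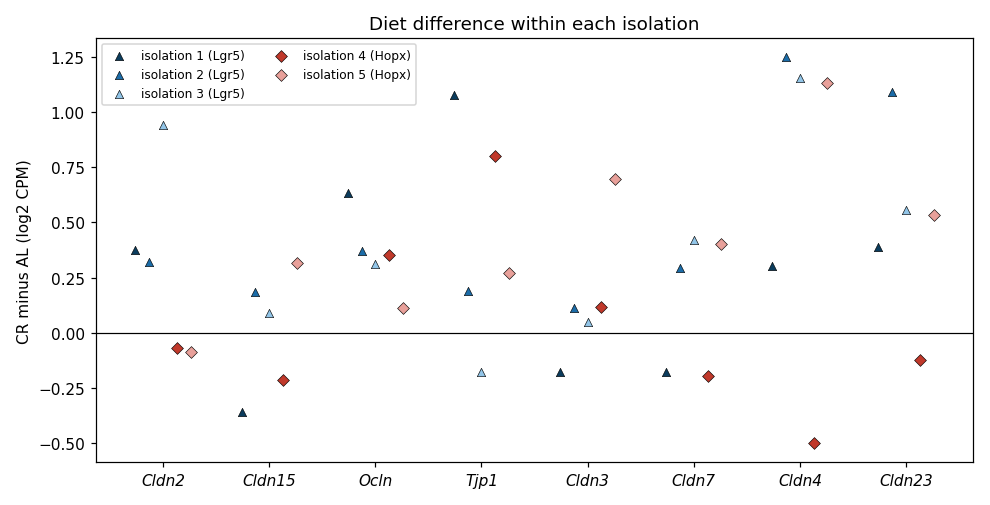
CR minus AL difference in log2 CPM within each isolation (triangles, isolations 1 to 3, Lgr5; diamonds, isolations 4 and 5, Hopx) for the 8 genes. Ocln lies above 0 in all 5 isolations, and Cldn2 lies above 0 in the 3 Lgr5 isolations and just below it in both Hopx isolations.

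Isolation 4 had the lowest count of members with CR above AL. The number of the 8 genes with CR above AL was 5, 8, 7, 3 and 7 in isolations 1 to 5, with median differences of 0.34, 0.31, 0.37, -0.10 and 0.36 log2 units. Over all genes tested, the median difference in each isolation lay between -0.0051 and 0.04, and 49.1% to 53.3% of genes had CR above AL.

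In the fit on counts, Cldn2 was the member whose diet values lay furthest apart between the reporter lines. It measured 248.0 and 247.0 CPM in Hopx CR and 260.2 and 262.0 CPM in Hopx AL. In Lgr5 cells it measured 265.9, 365.2 and 436.4 CPM under CR and 205.3, 292.7 and 227.6 CPM under AL. The Hopx libraries were nearly level, and Lgr5 CR replicate 1 lay below Lgr5 AL replicate 2. In Lgr5 cells the fitted log2 fold change was 0.56 (SE 0.207, interval 0.10 to 1.02, adjusted p = 0.424), with CR above AL in 3 of 3 isolations, as in 18.1% of all genes. In Hopx cells it was -0.08 (SE 0.253, interval -0.64 to 0.49, adjusted p = 0.946), with CR below AL in 2 of 2 isolations, as in 29.2% of all genes. The difference between the diet values, Hopx minus Lgr5, was -0.63 (SE 0.327, interval -1.36 to 0.09, adjusted p = 1.000), and so did not pass the test. In TPM it measured 77.5 and 79.7 in Hopx CR and 58.5 and 78.9 in Hopx AL, so there it was not lower under CR. By limma on log2(TPM + 1) its diet values had the same sign, 0.21 in Hopx cells and 0.34 in Lgr5 cells, and their difference was -0.13, against 0.90 for Cldn3, the member furthest apart on that scale. The median of all genes for this difference was 0.29 on log2(TPM + 1).

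Taken by line, no member passed the adjusted threshold under either diet comparison. In Lgr5 cells 0.0189% of all genes passed it (3 genes, and 0 with isolation as a block) and 9.78% had an unadjusted p under 0.05, as did Cldn2 and Cldn23 among the 8. In Hopx cells 0.0126% passed (2 genes, and 0 with the block) and 8.52% had an unadjusted p under 0.05, with none of the 8. For the difference between the lines, where 3 of 8 members had a value above 0 and 46.5% of all genes did, 0.00631% passed (1 gene, and 0 with the block) and 4.72% had an unadjusted p under 0.05, again with none of the 8. Fitted values were above 0 for 6 of 8 members in Lgr5 cells, where 51.8% of all genes were, and for 7 of 8 in Hopx cells, where 48.6% were. Cldn3 and Tjp1 had the largest values in Hopx cells, 0.42 (interval -0.13 to 0.97) and 0.48 (-0.31 to 1.28). Cldn4 and Cldn23 had the largest in Lgr5 cells, 0.77 (-0.13 to 1.67) and 0.63 (0.03 to 1.24).

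In CPM, all 8 members overlapped between Lgr5 CR and Lgr5 AL, where 14.9% of all genes did not. Between Hopx CR and Hopx AL, Cldn3 and Ocln lay above without overlap and Cldn2 below, where 42.7% of all genes did not overlap with 2 libraries a group. Cldn3 measured 484.8 and 656.2 CPM in Hopx CR and 446.9 and 404.9 CPM in Hopx AL. In Lgr5 cells Cldn3 measured 538.0, 610.6 and 448.9 CPM under CR and 608.9, 565.3 and 433.5 CPM under AL, groups that overlapped.

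**Figure D3:**
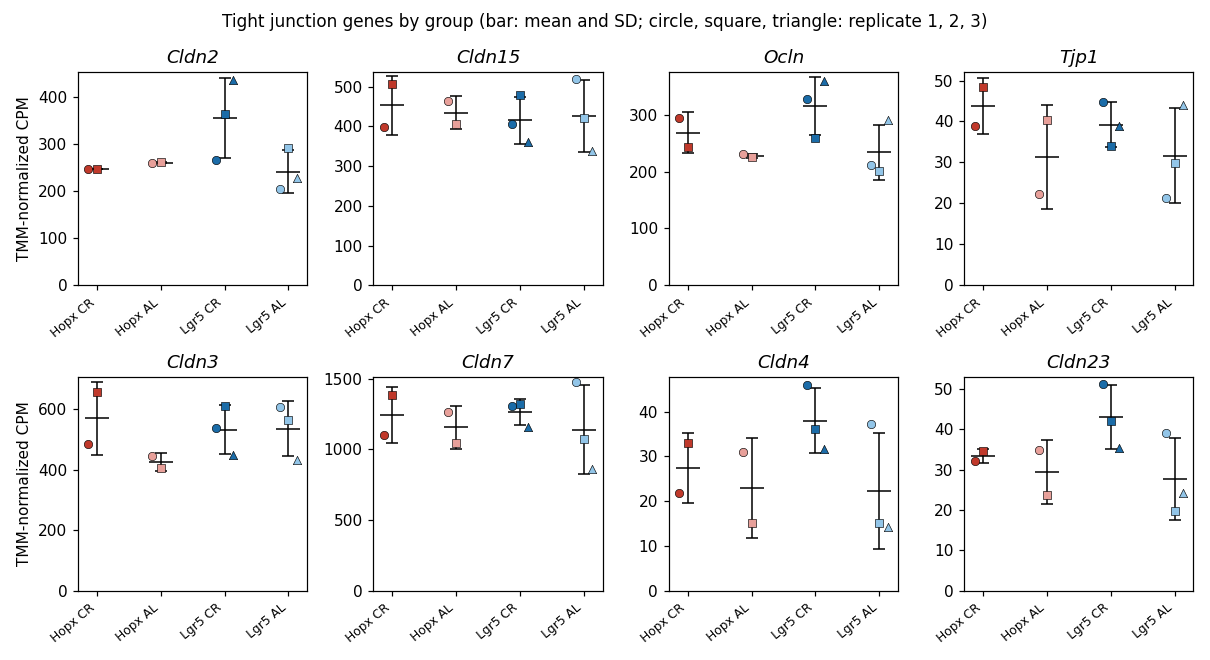
TMM-normalized CPM of each gene by group, from 0, with 1 point per library and the mean and SD as bars. Cldn2 is at 247.0 to 262.0 CPM in all 4 Hopx libraries and at 205.3 to 436.4 CPM in the Lgr5 libraries, and Cldn4 and Cldn23 of Lgr5 AL replicate 1 stand above both other Lgr5 AL libraries.

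The markers of absorptive enterocytes moved with the diet in most isolations. Summed over 18 enterocyte genes, none of them at 0 in any library, the level was 18263 and 22051 TPM in Hopx CR and 10456 and 10603 TPM in Hopx AL. In Lgr5 cells it was 31125, 22041 and 24613 TPM under CR and 33768, 10935 and 10103 TPM under AL. Lgr5 AL replicate 1 was thus the AL library with the highest sum, as it was for Cldn4 and Cldn23. All 18 genes had a fitted value above 0 over the isolations, where 51% of all genes did, with a median of 1.15 against 0.01. Of the 18, 1 was called, where 0.297% of all genes were. The part of these cells in the claudin values was not tested.

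The Lgr5 diet values of both of these villus claudins moved either way with 1 library left out at a time. They ran from 0.53 to 1.36 for Cldn4 and from 0.44 to 0.97 for Cldn23. The highest value of each came without Lgr5 AL replicate 1. Without it the fitted log2 fold change was 1.36 for Cldn4 and 0.97 for Cldn23, with an adjusted p of 0.0940 for each by edgeR's quasi-likelihood test. The number of genes called then was 109, against 3 with all libraries.

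Crypt and villus claudins were set against each other as the mean log2(TPM + 1) of Cldn2 and Cldn15 minus that of Cldn3, Cldn4, Cldn7 and Cldn23, a difference within each library. It averaged 0.29 ± 0.13 in Hopx CR and 0.54 ± 0.27 in Hopx AL (SD, n = 2 each). It averaged 0.29 ± 0.33 in Lgr5 CR and 0.46 ± 0.41 in Lgr5 AL (SD, n = 3 each). CR minus AL was -0.25 in Hopx cells and -0.17 in Lgr5 cells, and Hopx minus Lgr5 was 0.04. All were smaller in size than the SD within groups of 0.30, the root of the unweighted mean of the group variances. That SD is taken over unpaired libraries, so it also holds differences between isolations.

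Per library the balance was 0.38 and 0.19 in Hopx CR and 0.34 and 0.73 in Hopx AL, and -0.07, 0.38 and 0.57 in Lgr5 CR and 0.0026, 0.78 and 0.59 in Lgr5 AL. Within isolations 1 to 5 the CR minus AL difference was -0.07, -0.41, -0.02, 0.04 and -0.54. Isolations 2 and 5 held the large differences, and the other 3 lay near 0. The 2 lowest libraries were those of isolation 1, which also had the 2 highest enterocyte sums. With the narrower set of Cldn2 against Cldn4 and Cldn23, CR minus AL was -0.30 in Hopx cells and -0.22 in Lgr5 cells, and Hopx minus Lgr5 turned to -0.06. Within isolations 1 to 5 this narrower CR minus AL was 0.04, -0.79, 0.10, 0.25 and -0.85, so it was below 0 in 2 of 5 isolations, against 4 of 5 with the wider set.

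**Figure D4:**
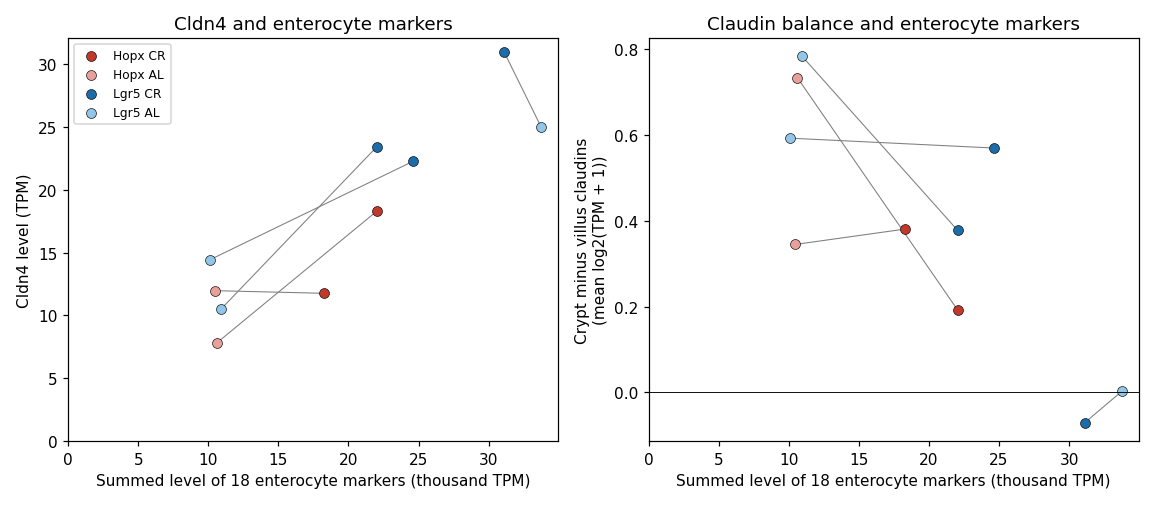
Left, Cldn4 level in TPM, and right, the crypt minus villus claudin balance in log2 units, each against the summed TPM of 18 enterocyte markers, with 1 point per library and a grey line joining the CR and AL libraries of an isolation. The 2 libraries of isolation 1 have the highest marker sums (31125 and 33768 TPM) and the lowest balance.

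Hopx and Lgr5 cells were compared under each diet. Reporter line and isolation cannot be told apart in these comparisons, since no isolation held both lines. Under ad libitum food no member passed the threshold, where 0.0189% of all genes did (3 genes), and none had an unadjusted p under 0.05, where 17.7% of all genes did. Fitted values on the TMM scale ran from -0.33 for Cldn3 (interval -0.84 to 0.18) to 0.11 for Cldn2 (-0.40 to 0.62), with a median of 0.02 against 0.04 for all genes, and 5 of 8 lay above 0, where 52.4% of all genes did. All 8 members overlapped between the groups in CPM, where 34.5% of all genes did not. The intervals were wide for the low genes, as for Cldn4 at -0.95 to 1.05.

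The same comparison on the deposited TPM gave other signs. Here all 8 members were lower in Hopx AL, and limma on log2(TPM + 1) called 2, Cldn3 at -1.11 (adjusted p = 0.0123) and Cldn15 at -0.75 (adjusted p = 0.0268), where 21.2% of all genes were called. Cldn3 measured 269 and 326 TPM in Hopx AL and 635, 607 and 681 TPM in Lgr5 AL, groups that did not overlap. This was not particular to Cldn3, since 6 of 8 members lay below without overlap in TPM. The share of all genes that did so is not given here. The median of all genes was itself -0.49 on this scale, and relative to it the 8 genes lay between -0.62 and -0.14. With a pseudocount of 0.1 the median was -0.66 and the members lay between -0.46 and -0.0098 relative to it. TPM are shares of a fixed total, and the 9 Paneth genes summed to 198353 to 298997 TPM in Hopx AL and 66008 to 173701 TPM in Lgr5 AL. The part of this in the TPM values was not tested. The median of all genes also moved on log2(TPM + 1) for Hopx CR against Hopx AL (0.15, with all 8 members higher), Lgr5 CR against Lgr5 AL (-0.11, with 5 higher and 3 lower), Hopx CR against Lgr5 CR (-0.19, with all 8 lower) and the difference between the diet values (0.29), and over the isolations it was -0.0077.

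Under calorie restriction Cldn2 was the only member with an unadjusted p under 0.05 (log2 fold change -0.52, SE 0.234, interval -1.05 to -0.0022, adjusted p = 0.793), where 6.3% of all genes had one and 0.0189% passed the adjusted threshold. Cldn2 and Cldn23 were below in Hopx CR without overlap, where 11.4% of all genes were. Cldn4 had a fitted -0.47 (interval -1.48 to 0.54), and Cldn3, Cldn7, Cldn15, Ocln and Tjp1 lay between -0.23 and 0.16. In all, 3 of 8 members had a value above 0, where 50.2% of all genes did. The comparisons of Hopx with Lgr5 under CR and of CR with AL in Lgr5 share the Lgr5 CR libraries, which held the highest Cldn2 values.

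Other claudins were few in these cells. Of 22 further claudins, 18 had a row and 7 passed the filter, and 4 averaged at least 1 TPM in a group. Cldn12 averaged 25.7 ± 1.03 TPM in Hopx CR and 19.9 ± 5.75 TPM in Hopx AL, and 34.3 ± 9.62 TPM in Lgr5 CR and 38.1 ± 11.4 TPM in Lgr5 AL (SD, n = 2 and 3). The row named Cldn25 averaged 61.5 ± 0.547 TPM in Hopx CR and 43.8 ± 12.8 TPM in Hopx AL, and 53.1 ± 9.08 TPM in Lgr5 CR and 58.6 ± 11.5 TPM in Lgr5 AL. RefSeq lists this name as a synonym of another gene as well, so which transcript it counts is uncertain. Cldn8 and Cldn9 averaged 0.48 to 2.62 TPM. None of the 7 passed the adjusted threshold in any comparison, where 0.00631% to 0.297% of all genes did.

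Among 35 tight junction partners (scaffolds, polarity proteins and other membrane proteins), all tested, none was called in any of the 6 comparisons. The share of all genes called was 0.00631% to 0.297%. Over the 5 isolations 24 had a fitted value above 0 and 11 below, and 11 had an unadjusted p under 0.05, 8 of them above 0, where 16.2% of all genes had one and 51% had a fitted value above 0. Their median was 0.15. Cxadr, the coxsackievirus and adenovirus receptor of the junction, had 0.51 (SE 0.126, adjusted p = 0.129). Marveld2, the tricellulin gene, had 0.43 (adjusted p = 0.142), Inadl, the scaffold Patj, 0.37 (adjusted p = 0.167), and Pard6b, a polarity protein, 0.38 (adjusted p = 0.183). For each of these 4 the CR library was above the AL library in 5 of 5 isolations, as in 8.71% of all genes. They were chosen by lowest p in this same comparison, so that agreement is no separate support. DESeq2 called Cxadr (adjusted p = 0.0159) and Marveld2 (adjusted p = 0.0437), among 1079 of all 15839 genes tested.

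Between Hopx AL and Lgr5 AL, 25 of the 35 partners had a value below 0, with a median of -0.24, and 10 had an unadjusted p under 0.05, all below 0. Of all genes 17.7% had such a p in this comparison, and 52.4% had a value above 0. Tjp3 (ZO-3) measured 214 ± 3.79 CPM in Hopx AL and 358 ± 13.6 CPM in Lgr5 AL (SD, n = 2 and 3), a log2 fold change of -0.74 (SE 0.162, adjusted p = 0.0856). Tjp3 did not overlap between the groups, where 34.5% of all genes did not. It was chosen by low p in this same comparison, so the lack of overlap is no separate support. Tjp1 was at -0.02 (interval -0.75 to 0.71), and the difference between Tjp3 and Tjp1 was not tested. Sympk, which codes for symplekin, a factor of RNA 3′ end processing also found at junctions, was at -0.74 (adjusted p = 0.0910). Mpdz, another scaffold, was listed at 0 in both Hopx AL libraries and at 0.532 to 3.38 CPM in Lgr5 AL. DESeq2 called Tjp3, Sympk and Mpdz, with an adjusted p of 4.3e-05 for Tjp3, 0.0013 for Sympk and 0.0010 for Mpdz, among 1157 of all genes tested.

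For Tjp3 the gap between Hopx and Lgr5 cells was smaller in the CR groups, a difference that did not pass the test. It measured 291 ± 30.7 CPM in Hopx CR and 329.9 ± 25.4 CPM in Lgr5 CR. In Hopx cells its CR against AL value was 0.44 (SE 0.174, adjusted p = 0.541). The difference between the diet values, Hopx minus Lgr5, was 0.56 (adjusted p = 1.000).

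The adherens junction and desmosome list held 20 genes, of which 19 were tested. None was called in any comparison, where 0.00631% to 0.297% of all genes were. Over the isolations 15 had a value above 0 and 4 below, with a median of 0.19, and 5 had an unadjusted p under 0.05, all above 0. Of all genes 16.2% had such a p over the isolations, and 51% had a value above 0. Dsg2, the desmoglein of simple epithelia, measured 324 ± 24.5 CPM in Hopx CR and 187 ± 32.0 CPM in Hopx AL, and 356 ± 103 CPM in Lgr5 CR and 206 ± 27.1 CPM in Lgr5 AL (SD, n = 2 and 3). The CR library was higher in 5 of 5 isolations, with a log2 fold change of 0.77 (SE 0.138, interval 0.45 to 1.09, adjusted p = 0.0715). Cdh17, the intestinal cadherin, had 0.53 (adjusted p = 0.143), Cdh1, the E-cadherin gene, 0.43 (adjusted p = 0.192), and Pvrl2, a nectin, 0.41 (adjusted p = 0.229). Each of them also had CR above AL in 5 of 5 isolations, as did 8.71% of all genes. Dsg2, Cdh17, Cdh1 and Pvrl2 were chosen by lowest p in this same comparison, so that agreement is no separate support. DESeq2 called Dsg2 (adjusted p = 9.3e-05), Cdh17 (adjusted p = 0.0058) and Cdh1 (adjusted p = 0.0361), among the 1079 genes it called. Without the filter on low counts edgeR called Dsg2 (adjusted p = 0.0277), among 219 of all genes.

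Between Hopx AL and Lgr5 AL, 14 of the 19 had a value below 0, with a median of -0.14, and 4 had an unadjusted p under 0.05, where 17.7% of all genes had one and 52.4% had a value above 0. Ctnnd1, the p120 catenin gene, measured 155 ± 13.7 CPM in Hopx AL and 296 ± 6.96 CPM in Lgr5 AL, a log2 fold change of -0.93 (SE 0.182, adjusted p = 0.0676). Jup, the plakoglobin gene, was at -0.71 (adjusted p = 0.104), Pvrl4 at -1.32 (adjusted p = 0.174) and Ctnnb1, the beta-catenin gene, at -0.40 (adjusted p = 0.256). By edgeR none of these passed the threshold, while DESeq2 called all 4 among its 1157 genes, with Ctnnd1 at an adjusted p of 1.8e-05. On the TPM scale both lists also carried the shift of the median described above.

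The lowest p-values in the remaining comparisons belonged to the following genes, none of them called by edgeR. In Lgr5 cells CR against AL was 0.63 for Cxadr, 0.43 for Marveld2 and -1.06 for Amotl2, an angiomotin family scaffold, and 0.79 for Dsg2, 0.50 for Cdh17, 0.35 for Cdh1 and 0.35 for Pvrl2. In Hopx cells it was 0.86 for Magi1, a scaffold, 0.58 for Ctnnd1, 0.79 for Dsg2, 0.55 for Cdh1 and -0.62 for Mllt4, the afadin gene. Dsg2 thus had nearly the same fitted value in both lines. Mpdz summed to 19.5 estimated counts in Hopx CR and 0 in Hopx AL, and to 21.8 in Lgr5 CR and 181 in Lgr5 AL, which is too low for its fold changes to be given.

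Hopx CR against Lgr5 CR was -0.66 for Prkci, an atypical protein kinase C of the polarity complex, -1.52 for Cgnl1, the paracingulin gene, -1.67 for Amotl1 and -0.43 for Inadl. In the adherens and desmosome list it was -0.45 for Ctnnb1, -0.47 for Ctnnd1, -1.01 for Pvrl4 and 0.65 for Pvrl1. For the difference between the diet values, Hopx minus Lgr5, Clmp of the partner list was at 3.40 (interval -0.04 to 6.85). Its estimated counts summed to 15.6 in Hopx AL and 96.1 in Hopx CR, so this value rests on few counts. In the adherens and desmosome list Jup was at 0.51, Mllt4 at -0.72, Ctnnd1 at 0.46 and Ctnna1, the alpha-catenin gene, at 0.24.

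Among the further claudins the fitted values were wide, since most had few counts. Hopx AL against Lgr5 AL was 2.51 for Cldn14 (interval 0.72 to 4.29, adjusted p = 0.158) and 3.21 for Cldn1 (0.47 to 5.94, adjusted p = 0.215). Estimated counts summed to only 7.9 for Cldn14 and 12.0 for Cldn1 in Lgr5 AL, so both values rest on few counts. The same comparison gave 1.98 for Cldn6 (-0.55 to 4.51) and 0.35 for Cldn25. Hopx CR against Lgr5 CR was 0.52 for Cldn25, 2.62 for Cldn1, 1.55 for Cldn9 and 0.90 for Cldn14. Over the 5 isolations CR against AL was 0.13 for Cldn25, -0.85 for Cldn6, -0.73 for Cldn9 and 0.39 for Cldn8. In Hopx cells it was -1.87 for Cldn6, 0.23 for Cldn25, -0.76 for Cldn14 and 0.47 for Cldn8, and in Lgr5 cells -1.21 for Cldn9, 0.84 for Cldn14, 0.08 for Cldn12 and 0.07 for Cldn25. Their differences, Hopx minus Lgr5, were -1.60 for Cldn14, -1.53 for Cldn6, 1.05 for Cldn9 and 0.16 for Cldn25.

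**Figure D5:**
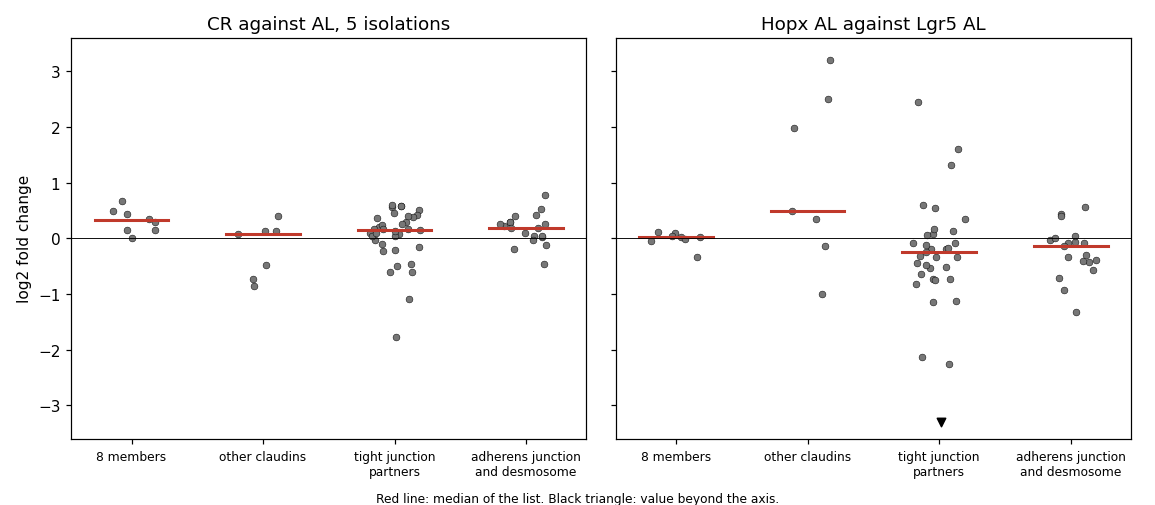
Fitted log2 fold change of each tested gene (points) and the median (red line) of the 8 members and 3 further junction lists, for CR against AL over 5 isolations (left) and Hopx AL against Lgr5 AL (right). The members' median is 0.32 on the left and 0.02 on the right, where that of the tight junction partners is -0.24 and a black triangle marks Mpdz, which lies beyond the axis.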

How the data were processed

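RNA of 10 sorted cell libraries was measured. Per the labels' protocols, total RNA was amplified with the SMART-Seq v4 kit, made into Nextera XT libraries and sequenced on an Illumina NextSeq. The authors deposited estimated counts and TPM per gene symbol. Per the submitters' processing notes the tools were kallisto and edgeR (versions not given) and the build was GRCh38, a human build, although the samples are from mouse. The sources used here give neither the annotation nor how transcripts became genes. These kits use no molecular identifiers, so precision covers counting and spread between libraries, not independent molecules.

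The deposited estimated counts were rounded to whole numbers, filtered with filterByExpr (minimum count 10), which left 15839 of 30295 rows, and scaled by TMM. edgeR's quasi-likelihood test used 1 mean per group over the 10 libraries (edgeR 4.0.16, R 4.3.3; biological coefficient of variation 0.389), with p-values adjusted by Benjamini-Hochberg over all genes tested. CR against AL over 5 isolations was fitted with isolation as a block. The isolation number in the labels pairs 1 CR and 1 AL library, and deviations from the group means correlated at 0.0195 to 0.165 within pairs. Log2 CPM used a prior count of 2. The scripts were tested on simulated data. Alternatives were DESeq2 1.42.0, limma 3.58.1 on the deposited TPM, another scaling, no filter, other blocks and each library left out.

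No 2 libraries were identical, and libraries of 1 group correlated at 0.937 to 0.965 in log2 CPM. P-values measure the spread between animals, 1 library each. The members, lists and tests were chosen with earlier results of these data known. From the other junction lists the text names the 4 genes with the lowest p-values per list and comparison, and further claudins at 1 TPM or more in a group. One gene that this rule names is not reported here. No member ranged over 4-fold between libraries, so no gene of like pattern was named. Coordinates are those of GENCODE M21 and RefSeq, not of the authors' processing.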

Additional observations from a re-analysis of the deposited data

Results flagged for a closer look

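In TMM-normalized CPM, Cldn2 had diet values of opposite sign in the reporter lines. CR minus AL was 0.37, 0.32 and 0.94 log2 units in the 3 Lgr5 isolations and -0.07 and -0.09 in the 2 Hopx isolations. The fitted difference between the diet values, Hopx minus Lgr5, was -0.63 (SE 0.327, adjusted p = 1.000 by edgeR's quasi-likelihood test across all genes), and did not pass the threshold. Cldn2 was flagged because the CR library was higher in 3 of 3 Lgr5 isolations and lower in 2 of 2 Hopx isolations. Taken 1 at a time, 18.1% and 29.2% of all genes had these directions. The share of all genes with both together is not given here, so how unusual the joint pattern is cannot be judged. The pattern was the rule of choice, so it is no separate support. The opposite direction holds for CPM only. In the deposited TPM, Cldn2 measured 77.5 and 79.7 in Hopx CR and 58.5 and 78.9 in Hopx AL, and by limma on log2(TPM + 1) the diet values were 0.21 in Hopx and 0.34 in Lgr5 cells, of the same sign. Their difference on that scale, Hopx minus Lgr5, was -0.13, where the median of all genes was 0.29.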

How the results depend on the processing

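None of the 8 genes passed the threshold in any of the 6 comparisons under the edgeR alternatives, DESeq2, or with any library or isolation left out. The exception was limma on TPM for Hopx AL against Lgr5 AL, which called 2 members with each pseudocount. The number of all genes called moved far more. DESeq2 called 1079 genes for CR against AL over 5 isolations, 140 for Hopx CR against Hopx AL, 365 for Lgr5 CR against Lgr5 AL, 35 for the difference between these, 1157 for Hopx AL against Lgr5 AL and 160 for Hopx CR against Lgr5 CR. Without the filter these counts were 219, 7, 83, 3, 194 and 24, in the same order of comparisons. With log2(TPM + 1) they were 85, 4, 19, 3, 3359 and 5, and with log2(TPM + 0.1) they were 167, 4, 23, 2, 3617 and 12. Relative log expression normalization gave 14 over the isolations and 1 in Lgr5 cells. The replicate block of isolation gave 0 in Hopx cells, 0 in Lgr5 cells and 0 for their difference. As a random block with voom it gave 9 for Hopx AL against Lgr5 AL. The fit over 5 isolations with no replicate block called 21, and a fit of only the libraries compared called 12 for Hopx CR against Lgr5 CR. The block changed no call of a member or of another named gene. The cause of these moves was not tested.

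Leaving out 1 library or isolation at a time gave 0 to 8 genes over the isolations, 1 to 3 in Hopx cells, 0 to 109 in Lgr5 cells, 1 to 2 for their difference, 0 to 110 for Hopx AL against Lgr5 AL and 1 to 7 for Hopx CR against Lgr5 CR. The highest counts of 109 and 110 were without Lgr5 AL replicate 1. All values in the crypt and villus balance moved by less than the SD within groups of 0.30 described above. That SD is larger than the differences themselves, so a change of sign can pass this check. With 1 library left out, CR minus AL of the balance ran from -0.40 to 0.014 in Lgr5 cells. In Hopx cells it ran from -0.45 to -0.059.

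Some values changed sign. On log2(TPM + 1) these were Cldn15 at -0.0050 over the isolations, Cldn2 at 0.21 in Hopx cells, and Cldn7 at -0.026, Cldn12 at -0.15 and Cldn25 at -0.14 in Lgr5 cells. For the difference between the diet values they were Cldn23 at 0.011, Cldn7 at 0.42 and Ocln at 0.28. For Hopx AL against Lgr5 AL they were Cldn15 and Cldn7 at -0.75 each, Cldn2 at -0.66, Cldn4 at -0.64, Cldn23 at -0.63 and Cldn25 at -0.43. For Hopx CR against Lgr5 CR they were Cldn3 at -0.21, Cldn15 at -0.18 and Tjp1 at -0.13. On log2(TPM + 0.1) the same genes changed sign, with Cldn15 at -0.0049 over the isolations, Cldn2 at 0.21 in Hopx cells, and Cldn7 at -0.026, Cldn12 at -0.15 and Cldn25 at -0.14 in Lgr5 cells. The difference between the diet values gave Cldn23 at 0.019, Cldn7 at 0.42 and Ocln at 0.29. Hopx AL against Lgr5 AL gave Cldn15 and Cldn7 at -0.75 each, Cldn2 and Cldn23 at -0.67 each, Cldn4 at -0.68 and Cldn25 at -0.43, and Hopx CR against Lgr5 CR gave Cldn3 at -0.21, Cldn15 at -0.18 and Tjp1 at -0.14. With relative log expression normalization and with DESeq2, Cldn15 was at -0.020 over the isolations, and for Hopx AL against Lgr5 AL Cldn15 was at -0.016 and Cldn7 at -0.024. Without the filter Tjp1 was at 0.0032 for Hopx AL against Lgr5 AL and Cldn3 at 0.010 in Lgr5 cells. Cldn15 was at -0.00087 over the isolations with no replicate block, and Cldn7 at -0.0084 for Hopx AL against Lgr5 AL with only the libraries compared.

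With libraries left out, the range crossed 0 for Cldn15 over the isolations (-0.071 to 0.082). In Hopx cells it did for Cldn4 (-0.18 to 0.87), Cldn7 (-0.064 to 0.26), Cldn15 (-0.12 to 0.22), Cldn23 (-0.072 to 0.49), Cldn8 (-0.080 to 1.36) and Cldn14 (-1.27 to 0.047). In Lgr5 cells it did for Cldn3 (-0.14 to 0.10), Cldn7 (-0.024 to 0.38), Cldn12 (-0.10 to 0.25), Cldn15 (-0.19 to 0.13) and Cldn25 (-0.039 to 0.19). For the difference it did for Cldn4 (-1.11 to 0.13), Cldn7 (-0.27 to 0.14), Cldn9 (-0.14 to 2.31), Cldn15 (-0.083 to 0.26), Ctnna1 (-0.018 to 0.45) and Tjp1 (-0.15 to 0.65). For Hopx AL against Lgr5 AL it did for Cldn4 (-0.60 to 0.64), Cldn7 (-0.17 to 0.25), Cldn15 (-0.14 to 0.19), Cldn23 (-0.25 to 0.43), Ocln (-0.14 to 0.12) and Tjp1 (-0.50 to 0.32), and for Hopx CR against Lgr5 CR for Cldn3 (-0.13 to 0.30), Cldn7 (-0.19 to 0.13), Cldn15 (-0.052 to 0.28) and Tjp1 (-0.0089 to 0.31). Cldn4 had 351 to 2454 estimated counts in a library, and how far depth limits the values was not tested.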
